A study of Mus musculus with 12 samples.

Results

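Retinoid signalling turns a vitamin A derivative, retinoic acid, into changes in transcription. Retinol travels in blood bound to the carrier encoded by Rbp4 and enters cells through the membrane receptor encoded by Stra6. Inside the cell it is oxidised to retinoic acid, which is held by the binding proteins of Crabp1 and Crabp2 and is degraded by cytochrome P450 enzymes such as that of Cyp26b1. Retinoic acid binds the retinoic acid receptors (RARs, encoded by Rara, Rarb and Rarg), which sit on DNA together with a retinoid X receptor (RXR, encoded by Rxra, Rxrb and Rxrg), and the RXRs are also partners of several other nuclear receptors. In the adult forebrain the striatum is known for strong expression of Rarb and Rxrg.

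The genes examined were 10 retinoid receptors, carriers and handling genes, chosen by name: 5 receptors other than Rarb (Rara, Rarg, Rxra, Rxrb and Rxrg), 3 binding proteins (Crabp1, Crabp2 and Rbp4), Stra6 and Cyp26b1. All 10 were found among the 33024 gene symbols of the cortex count table, and all 10 passed the filter on low counts, which left 16059 genes for testing. The table holds cortex RNA from 12 C57BL/6 mice, 7 titled Control (treatment Vehicle) and 5 titled EtOH. According to the methods of the study, mice were 30 days old when drinking began. The EtOH animals could drink from a bottle of 20% ethanol or one of water during 12 h of each night, for 35 days, followed by 14 days of abstinence, and the controls had water in both bottles. A series of behavioural tests came between abstinence and harvest. EtOH mice are called ethanol-administered mice here. Cortex was harvested after perfusion with saline, and the methods do not give the extent of the dissection. Each value is an average over all cell types in the piece dissected.

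Total counts lay between 31768076 and 42183029 per mouse, and the deepest libraries were those of control mouse 5 and ethanol-administered mouse 1. At these depths 3 counts correspond to at most 0.0962 CPM (the count of a gene scaled to the library's total over tested genes, with TMM factors). Markers of both upper and deep cortical layers were present in every mouse. Deep-layer markers summed to 559 to 584 CPM in the ethanol-administered mice against 564 to 655 CPM, with 2 of 10 called lower and 1 higher. Only control mouse 7 (564 CPM) was not above all of these ethanol-administered mice. Upper-layer markers summed to 706 to 914 CPM against 752 to 922 CPM, with 2 of 8 called lower. A list of 15 striatal marker genes was lower in every ethanol-administered mouse, with summed levels of 383 to 494 CPM against 1351 to 3044 CPM in the controls, and all 15 genes were called lower. Of 13 hippocampal markers, 8 were called higher, and their summed level ran from 583 to 657 CPM against 373 to 459 CPM. Choroid plexus markers were above every control in ethanol-administered mice 1, 3 and 4 only, with sums of 125, 1015 and 285 CPM, against 8.72 to 23.6 CPM in the controls and 23.3 and 13.1 CPM in mice 2 and 5. Oligodendrocyte markers summed to 4470 to 5937 CPM in the controls and 2996 to 5354 CPM in the ethanol-administered mice, with 2 of 9 called lower and 8 of 9 lower without a minimum fold change. Only mouse 2 (5354 CPM) reached the control range, and the others had 2996 to 3731 CPM. The sums of 2 further lists did not overlap between the groups. Interneuron markers summed to 852 to 916 CPM in the ethanol-administered mice against 1046 to 1363 CPM, with 3 of 9 called lower, and microglia markers to 295 to 318 CPM against 347 to 387 CPM, with 1 of 9 called lower and 6 of 9 lower without a minimum fold change. The part of these other markers in the results was not tested. Lower RNA of a cell type can mean fewer such cells in the piece dissected or less RNA per cell, and bulk values cannot tell these apart. How much striatal, hippocampal or choroid plexus tissue each piece held was not tested.

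Ethanol-administered mice had less RNA of 2 of the 10 genes, the receptor gene Rxrg and the binding protein gene Crabp1. Rxrg fell to 5.54 ± 3.12 CPM (SD, n = 5) from 33.6 ± 9.20 CPM (SD, n = 7) in the controls, and Crabp1 fell to 0.306 ± 0.212 CPM (SD, n = 5) from 1.38 ± 0.411 CPM (SD, n = 7). No member was called higher. A gene was called when its Benjamini-Hochberg adjusted p in edgeR's test was below 0.05 and its log2 fold change exceeded 0.5 in either direction, and this held for 8.29% of all tested genes, with 4.09% called lower and 4.2% called higher. Without a minimum fold change, 4 members were lower (Rxrg, Crabp1, Rxrb and Rbp4), where 11.6% of all genes were lower by that rule. In these 4 genes every ethanol-administered mouse lay below every control mouse, a separation found in 4.96% of all genes, and no member showed the opposite separation, which 4.84% of all genes did. The median log2 fold change of the 10 genes was -0.28, with 9 of 10 negative, against 7.21e-05 over all genes tested.

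**Figure D1:**
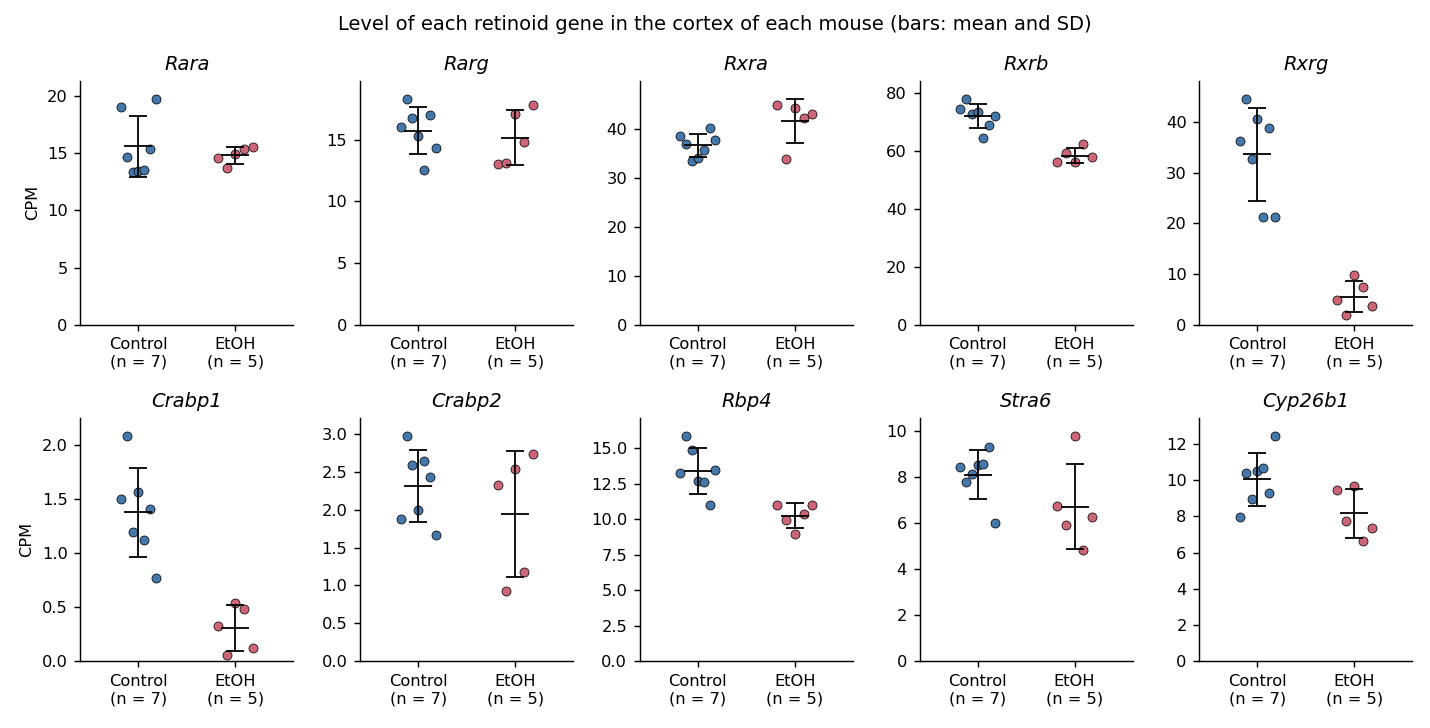
Level of each of the 10 genes in CPM (y axis from 0) in every control (n = 7) and ethanol-administered mouse (n = 5), with the mean and SD as bars. Rxrg, Crabp1, Rxrb and Rbp4 separate the groups, while the other 6 genes overlap.

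Rxrg and Crabp1 were the members that moved together, so the sequence around their start sites is shown, from 250 bases before the start of the canonical Gencode transcript (release 39, GRCm39) to 50 bases from it. Rxrg lies on chromosome 1 from 167425673 to 167467193 and its window is chr1:167425554-167425853, plus strand. Crabp1 lies on chromosome 9 from 54671171 to 54680403 and its window is chr9:54671782-54672081, plus strand. Capitals mark the hexamer to which nuclear receptors of this family bind, searched on both strands as AGGTCA or AGTTCA or GGGTCA or GGTTCA.
Rxrg: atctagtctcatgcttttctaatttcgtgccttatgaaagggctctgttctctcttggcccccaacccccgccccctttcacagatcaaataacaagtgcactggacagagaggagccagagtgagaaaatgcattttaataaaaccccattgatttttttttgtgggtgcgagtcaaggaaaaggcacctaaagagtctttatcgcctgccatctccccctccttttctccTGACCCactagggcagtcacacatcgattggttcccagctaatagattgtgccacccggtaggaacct
Crabp1: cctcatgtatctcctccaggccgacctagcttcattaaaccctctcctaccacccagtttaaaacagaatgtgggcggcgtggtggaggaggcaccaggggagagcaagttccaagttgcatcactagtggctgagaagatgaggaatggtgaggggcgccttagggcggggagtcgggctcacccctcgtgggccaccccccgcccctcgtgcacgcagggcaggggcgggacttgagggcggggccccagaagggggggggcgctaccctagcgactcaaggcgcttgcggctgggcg

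The window of Rxrg held 1 such hexamer, on the opposite strand at position -18 from the start, and that of Crabp1 held none. Hexamers were found in the windows of 5 of the 10 members, where 42.5% of the 21757 promoters of protein-coding genes held at least 1. Direct repeats of the hexamer with a spacing of 1, 2 or 5 bases, the arrangements that RAR and RXR pairs prefer, were in no member's window and in 0.225%, 0.11% and 0.0552% of all promoters. Both windows differed in base composition, with 47.7% G and C in Rxrg and 65% in Crabp1, and the median over all promoters was 54.3%. GGGCGG, the box bound by Sp1-type factors, matched 5 times on either strand in the Crabp1 window and 1 time in that of Rxrg. These matches describe the letters only.

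Rxrg encodes RXR gamma, the RXR with the most restricted expression in the brain. Control mice had 21.2 to 44.5 CPM with a median of 36.2 CPM, while ethanol-administered mice 1 to 5 had 4.89, 1.93, 9.87, 7.34 and 3.65 CPM. The highest ethanol-administered mouse thus lay below the lowest control, and the spread relative to the mean was wider in the ethanol-administered mice (56.4%) than in the controls (27.4%). The ratio of means was 6.07-fold, and the log2 fold change was -2.60 (SE 0.29, adjusted p = 6.65e-06, edgeR).

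Crabp1 encodes a cytoplasmic retinoic acid binding protein and was the scarcest member in the ethanol-administered mice. It rests on few reads, namely 14, 2, 18, 16 and 4 counts in ethanol-administered mice 1 to 5 against 24 to 68 counts in the controls. In CPM these were 0.325, 0.0622, 0.537, 0.485 and 0.122, against 0.770 to 2.08 CPM with a median of 1.40 CPM in the controls. Mouse 2 was below the 3 counts taken as the floor of detection, and again no ethanol-administered mouse reached the lowest control. The log2 fold change was -2.15 (SE 0.38, adjusted p = 0.000576, edgeR).

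Both genes stayed called with any one mouse left out, with log2 fold changes of -2.91 to -2.40 for Rxrg and of -2.43 to -1.91 for Crabp1. They were also called without the 3 ethanol-administered mice that had raised choroid plexus markers, at -3.59 and -3.85, but the mice left, 2 and 5, were the lowest of their group in both genes, so this is no sign of stability. With the filter that asks for 10 counts in every mouse, Crabp1 was not tested. Within groups, Rxrg and Crabp1 varied together from mouse to mouse. After each group's mean was subtracted from the log2 CPM values, Pearson's r between them was 0.95 over 12 mice, which share their libraries and depths.

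The genes whose pattern was most like theirs were sought among all tested genes by the same measure. For Rxrg these were Necab2 (r = 0.97), Crabp1 itself (0.95) and Blcap (0.94), and for Crabp1 they were Oxtr (0.97), the oxytocin receptor gene, Necab2 (0.96), which encodes a neuronal calcium-binding protein, and Cdh4 (0.96), a cadherin gene. None of the genes on these lists other than Rxrg and Crabp1 was called between the groups, with log2 fold changes of 0.08 for Necab2, 0.02 for Blcap, 0.44 for Oxtr and -0.50 for Cdh4 (adjusted p = 0.781, 0.892, 0.122 and 0.00982, edgeR). Cdh4 passed on p and lay just short of the minimum fold change. These r values rank genes over 12 mice and are given as a description.

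Levels of both genes followed the striatal marker list in part. Among controls, mouse 7 had the lowest marker sum (1351 CPM) and the lowest Rxrg (21.2 CPM) and Crabp1 (0.770 CPM), mouse 5 was next in all 3, with 1967, 21.3 and 1.12 CPM, and mouse 2 was highest in all 3, with 3044, 44.5 and 2.08 CPM. Among ethanol-administered mice, the lowest in all 3 was mouse 2 (383, 1.93 and 0.0622 CPM), followed by mouse 5 (417, 3.65 and 0.122 CPM). The marker sums of the other three were 494, 473 and 485 CPM in mice 1, 3 and 4, where Rxrg (4.89, 9.87 and 7.34 CPM) and Crabp1 (0.325, 0.537 and 0.485 CPM) ran in the reverse order of the markers. No control reached a marker sum as low as any ethanol-administered mouse. Striatal markers and the treatment therefore cannot be told apart in these samples, and the part of striatal tissue in the fall of Rxrg and Crabp1 was not tested.

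**Figure D2:**
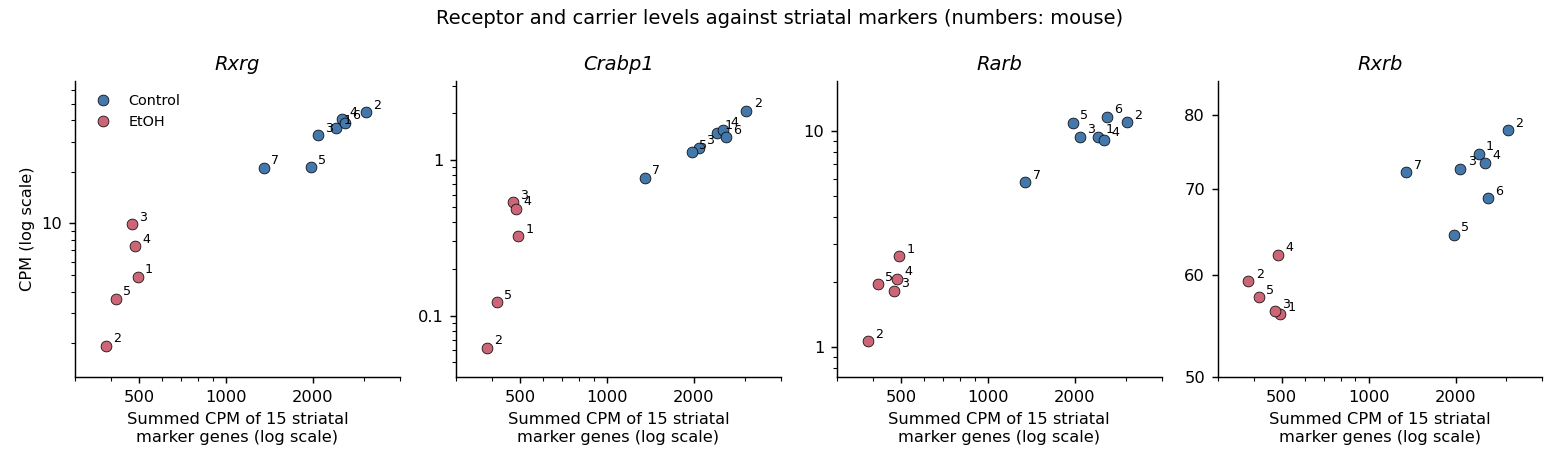
CPM of Rxrg, Crabp1, Rarb and Rxrb (y axis, log scale, a different range in each panel) against the summed CPM of 15 striatal marker genes (x axis, log scale), 1 point a mouse with its number. Rxrg and Crabp1 order the controls much as the markers do, while Rxrb spans only 56.0 to 77.8 CPM and has control mouse 5, not 7, as its lowest control.

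Rxrb, on chromosome 17 from 34250759 to 34257376, encodes RXR beta, which is expressed in most tissues. Control mice had 64.6 to 77.8 CPM (median 72.6), and ethanol-administered mice 1 to 5 had 56.0, 59.4, 56.3, 62.3 and 57.7 CPM. The groups did not overlap, and the difference was small, with a mean 19.0% lower. Its log2 fold change of -0.30 (SE 0.05, adjusted p = 0.000595, edgeR) passed the test on p but not the minimum fold change, and stayed between -0.34 and -0.28 with any mouse left out.

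Rxra, on chromosome 2 from 27566452 to 27653330, encodes RXR alpha. Ethanol-administered mice 1, 3, 4 and 5 had 44.9, 44.2, 42.4 and 43.1 CPM, all above the controls, which had 33.6 to 40.2 CPM (median 37.0). Mouse 2, with 33.9 CPM, lay near the bottom of the control range. The log2 fold change of 0.18 (95% interval 0.05 to 0.32) did not pass after adjustment (adjusted p = 0.0663, edgeR). Without mouse 2 it was 0.24 (adjusted p = 0.00716, edgeR), below the minimum fold change, and without the 3 mice of raised choroid plexus markers 0.06 (adjusted p = 0.748, edgeR). The latter fit kept only mice 2 and 5, so the low mouse 2 weighs heavily in it and it cannot show a part of the choroid plexus.

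The make-up of the RXR transcripts therefore differed between the groups. Levels were divided by the length of each gene's merged exons so that genes could be set side by side. Rxrg made up 22.9% ± 4.59 (SD, n = 7) of the summed CPM per kb of the 3 RXR genes in the controls, between 15.9% and 27.4%, and 5.21% ± 2.77 (SD, n = 5) in the ethanol-administered mice, with 4.75%, 2.01%, 9.15%, 6.61% and 3.56% in mice 1 to 5. Rxra made up 18.7% ± 1.96 (SD, n = 7) of the controls' total and 29.3% ± 2.39 (SD, n = 5) in the ethanol-administered mice, again with no overlap. Shares sum to the whole, so a lower share of Rxrg raises the others. The ratio of Rxrb to Rxra per kb, which leaves Rxrg out, was 3.13 ± 0.280 (SD, n = 7) in the controls and 2.25 ± 0.327 (SD, n = 5) in the ethanol-administered mice, and the groups overlapped. Rxrb remained the main RXR transcript in every mouse, at 54.1% to 63.3% in controls and 60.8% to 72.1% in ethanol-administered mice. The summed level of the 3 genes was 28.7 ± 2.61 (SD, n = 7) and 20.7 ± 1.14 CPM per kb (SD, n = 5). Without Rxrg it was 22.0 ± 1.03 (SD, n = 7) and 19.6 ± 0.678 (SD, n = 5), where the groups overlapped. No test was made of these shares.

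**Figure D3:**
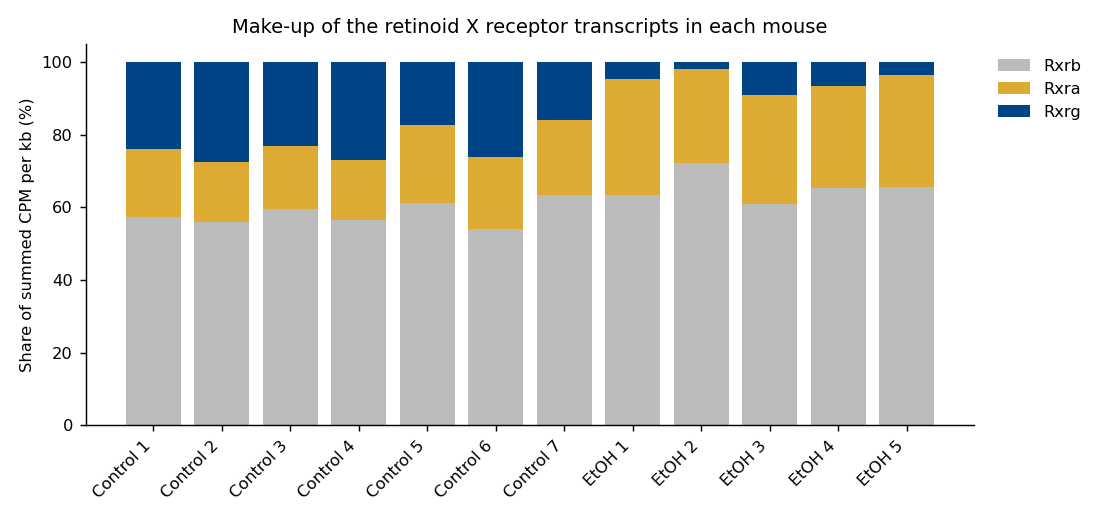
Share of Rxrb, Rxra and Rxrg in the summed CPM per kb of exon of the 3 genes (y axis, %) in each of the 12 mice. Rxrg takes 15.9% to 27.4% in the controls and 2.01% to 9.15% in the ethanol-administered mice.

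The retinoic acid receptors among the members did not differ beyond the spread between mice. Rara, on chromosome 11 from 98818612 to 98865768, had 13.4 to 19.7 CPM in the controls (median 14.6) and 14.5, 13.7, 14.9, 15.4 and 15.5 CPM in ethanol-administered mice 1 to 5. All ethanol-administered mice lay inside the control range, and the log2 fold change was -0.07 (95% interval -0.27 to 0.13, adjusted p = 0.641, edgeR). Rarg, on chromosome 15 from 102143373 to 102165952, had 12.5 to 18.3 CPM in the controls (median 16.03) and 13.0, 13.1, 17.1, 14.8 and 17.8 CPM in the ethanol-administered mice, with a log2 fold change of -0.05 (95% interval -0.25 to 0.15, adjusted p = 0.743, edgeR). Both intervals leave out changes as large as the minimum fold change. Per kb of exon, Rarg was the higher of the pair in 6 of 7 controls and 5 of 5 ethanol-administered mice.

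Rarb was not among the members and is given for comparison. It had 5.77 to 11.6 CPM in the controls (median 9.41) and 2.62, 1.06, 1.82, 2.06 and 1.95 CPM in ethanol-administered mice 1 to 5, a log2 fold change of -2.32 (SE 0.19, adjusted p = 2.34e-07, edgeR). Control mouse 7 was again the lowest control and mouse 2 the lowest ethanol-administered mouse, as for Rxrg, but control mouse 5 was not low in Rarb (10.9 CPM). Exons of Top2b, which encodes a topoisomerase, and of the noncoding gene Gm48162 overlap those of Rarb from the opposite strand. The overlaps sum to 2839 bases, where the merged exons of Rarb hold 8366. The share of Rarb in the summed CPM per kb of the 3 RAR genes was 16.4% ± 3.47 (SD, n = 7) in the controls and 3.88% ± 1.22 (SD, n = 5) in the ethanol-administered mice.

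Among the carriers, Rbp4, which encodes the serum retinol binding protein and lies on chromosome 19 from 38105066 to 38113754, was modestly lower. Controls had 11.03 to 15.9 CPM (median 13.2) and ethanol-administered mice 1 to 5 had 11.01, 9.92, 8.94, 10.3 and 11.005 CPM. The groups met without overlapping, and the mean was 23.5% lower in the ethanol-administered mice. Its log2 fold change of -0.39 (SE 0.09, adjusted p = 0.00597, edgeR) passed on p and not on the minimum fold change. It lost the former without the 3 mice of raised choroid plexus markers (log2 fold change -0.36, adjusted p = 0.116, edgeR). Exons of Ffar4, a fatty acid receptor gene on the opposite strand, overlap those of Rbp4 over 222 bases.

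Crabp2, the related binding protein gene whose product delivers retinoic acid to the nucleus, lies on chromosome 3 from 87855973 to 87860683. Its levels were 1.67 to 2.97 CPM in the controls (median 2.42) and 2.32, 0.933, 2.53, 1.18 and 2.74 CPM in ethanol-administered mice 1 to 5. Mice 2 and 4 lay below every control and the other three inside the control range. The log2 fold change was -0.25, with a wide 95% interval of -0.73 to 0.23 (adjusted p = 0.492, edgeR). It was -0.08 without mouse 2, -0.12 without mouse 4 and -0.40 without mouse 5, and it was not called in any of these fits. The ratio of Crabp1 to Crabp2 per kb was 0.610 ± 0.161 (SD, n = 7) in the controls and 0.177 ± 0.149 (SD, n = 5) in the ethanol-administered mice, without overlap.

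Stra6, the retinol uptake receptor gene on chromosome 9 from 57970967 to 58063543, had 6.00 to 9.34 CPM in the controls (median 8.45). Ethanol-administered mice 1 to 5 had 6.77, 5.91, 9.81, 4.85 and 6.29 CPM, so that mouse 3 lay above all controls and mice 2 and 4 below them. The log2 fold change was -0.27 (95% interval -0.56 to 0.01, adjusted p = 0.187, edgeR). Single mice moved this value, to -0.45 (adjusted p = 0.0182, edgeR) without mouse 3 and to -0.18 (adjusted p = 0.409, edgeR) without mouse 4.

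Cyp26b1, on chromosome 6 from 84548396 to 84570890, encodes an enzyme that clears retinoic acid. Controls had 7.98 to 12.4 CPM (median 10.4) and ethanol-administered mice 1 to 5 had 9.48, 7.75, 9.69, 6.61 and 7.36 CPM. Mice 2, 4 and 5 lay below every control, and mice 1 and 3 did not. The log2 fold change of -0.29 (95% interval -0.53 to -0.06) did not pass after adjustment (adjusted p = 0.0808, edgeR). It passed on p, below the minimum fold change, without control mouse 1 (adjusted p = 0.0464, edgeR) or without ethanol-administered mouse 3 (adjusted p = 0.0492, edgeR).

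**Figure D4:**
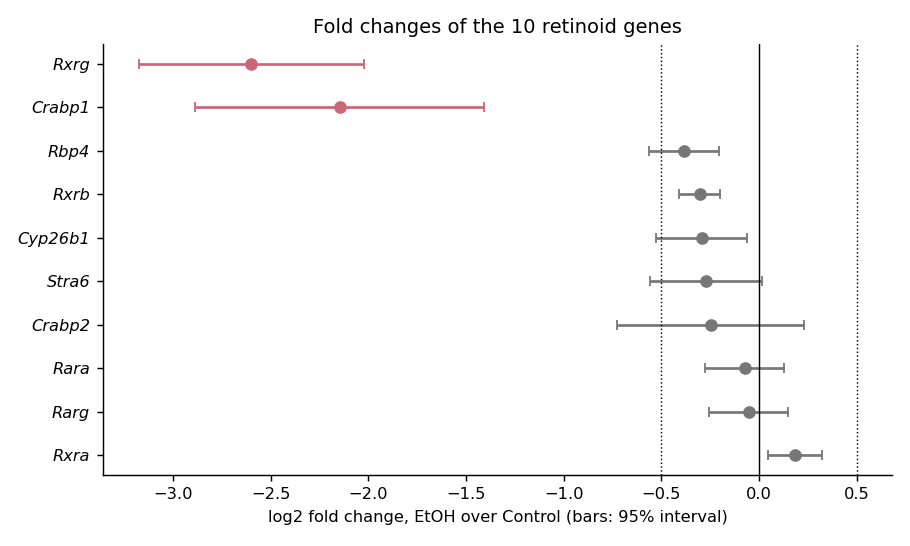
log2 fold change of each of the 10 genes (x axis, ethanol-administered over control mice) with its 95% interval from the standard error of the edgeR fit; dotted lines mark 0.5 in either direction and red marks genes called. Rxrg (-2.60) and Crabp1 (-2.15) stand apart from the other 8, which lie between -0.39 and 0.18.

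Per kb of exon, the order of the 10 genes in the controls was Rxrb (16.7 CPM per kb), Rbp4 (9.38), Rxrg (6.67), Rxra (5.34), Rarg (3.40), Rara (2.48), Cyp26b1 (1.76), Crabp2 (1.75), Crabp1 (1.06) and Stra6 (0.962). Rxrg exceeded Rxra in 5 of 7 controls, Cyp26b1 exceeded Crabp2 in 2 of 7 and Crabp1 exceeded Stra6 in 3 of 7, so these neighbours were not separated. In the ethanol-administered mice Rxrg was the eighth, at 1.10 CPM per kb, and Crabp1 last, at 0.235 CPM per kb and below Stra6 (0.796) in 5 of 5 mice. Rxrb (13.5) and Rbp4 (7.18) kept the leading places, and Rxra (6.07), Rarg (3.28) and Rara (2.35) followed in the same order as before. Rbp4 exceeded Rxra in 4 of 5 of these mice, and Crabp2 (1.47), Cyp26b1 (1.44), Rxrg and Stra6 were likewise not separated from their neighbours in every mouse.

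The rest of the pathway was followed in lists of 48 other retinoid genes, 36 of which were tested. Of these, 4 were called lower and 1 higher, 5 of 36 against 8.29% of all genes, with a median log2 fold change of 0.01. Without the minimum fold change 13 of 36 passed, where 23.7% of all genes did. Enzymes of retinoic acid synthesis and storage stood mostly level, with 1 of 13 called. That gene was Aldh1a3, one of the retinaldehyde dehydrogenases, at 0.814 ± 0.215 (SD, n = 5) and 1.35 ± 0.305 CPM (SD, n = 7), with a log2 fold change of -0.72 (adjusted p = 0.0296, edgeR). Its groups overlapped, and it was not called in 7 of the 12 fits that left out a mouse. The related Aldh1a1 (29.7 ± 3.01 CPM in controls, SD, n = 7) and Aldh1a2 (6.43 ± 1.47 CPM, SD, n = 7) had log2 fold changes of -0.20 and 0.03 (adjusted p = 0.201 and 0.936, edgeR). Without ethanol-administered mouse 2, Aldh1a1 passed on p, below the minimum fold change (-0.32, adjusted p = 0.0251, edgeR). With 1 mouse left out, Aldh1a2 ranged from -0.10 to 0.21. Ethanol-administered mice 2 and 4 (3.05 and 3.55 CPM) lay below its lowest control (4.49 CPM). Rdh10, which begins the oxidation of retinol, and Dhrs3, which reverses that step, had 0.17 and -0.15 (adjusted p = 0.285 and 0.252, edgeR).

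Ttr encodes transthyretin, which carries Rbp4's product with its retinol and is made in the choroid plexus. It had 97.8, 8.99, 911, 241 and 2.16 CPM in ethanol-administered mice 1 to 5, and 3.13 to 13.1 CPM in the controls (median 3.98). Mice 1, 3 and 4 lay above every control, whereas mouse 5 lay below every control. It was called higher (log2 fold change 5.52, SE 0.95, adjusted p = 0.000492, edgeR), and without mouse 3 the log2 fold change was 4.00 (adjusted p = 0.00166, edgeR). It was not called by limma voom (log2 fold change 3.48, adjusted p = 0.114). Of the 7 choroid plexus markers tested, 5 were called higher, Ttr among them.

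None of 10 RAR cofactors was called, and all 10 had positive log2 fold changes of 0.06 to 0.33, their median being 0.18. Without the minimum fold change 5 of the 10 were higher and none lower, where 12.1% of all genes were higher by that rule. Ncoa1, a coactivator gene, was the one whose groups separated, at 192 ± 3.70 (SD, n = 5) and 157 ± 10.5 CPM (SD, n = 7), with a log2 fold change of 0.28 (adjusted p = 0.000691, edgeR). Of 10 tested genes described as targets of retinoic acid, 2 were called lower and none higher, against 4.09% and 4.2% of all genes. Without the minimum fold change 4 were lower and 1 higher, against 11.6% and 12.1% of all genes. The 2 called were the homeobox genes Meis2, at 93.4 ± 4.62 CPM (SD, n = 5) against 225 ± 28.3 CPM in controls (SD, n = 7), and Meis1, at 2.36 ± 0.452 against 4.05 ± 1.15 CPM. Their log2 fold changes were -1.27 and -0.78 (adjusted p = 8.20e-09 and 0.00790, edgeR). Without the 3 mice of raised choroid plexus markers Meis1 was not called (-0.68, adjusted p = 0.169, edgeR). Meis2 lay below every control in every ethanol-administered mouse, a separation found in 4.96% of all genes. The groups overlapped for Meis1. Meis2 was lowest in control mouse 7 (190 CPM) and highest in control mouse 2 (271 CPM), as the striatal marker sum was. Among ethanol-administered mice both were lowest in mouse 2 (87.4 CPM for Meis2). Meis2 was highest there in mouse 3 (98.7 CPM), the marker sum in mouse 1. The part of striatal tissue in the fall of Meis2 was not tested.

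RXR partner receptors gave 1 gene higher and 1 lower among 11 tested, where 8.29% of all genes were called. Nr4a2, an orphan nuclear receptor of neurons that can pair with RXRs, had 108, 62.3, 135, 146 and 164 CPM in ethanol-administered mice 1 to 5, all above the controls at 26.0 to 41.3 CPM (median 34.2), a log2 fold change of 1.86 (SE 0.17, adjusted p = 5.17e-07, edgeR). Vdr, the vitamin D receptor gene, was lower, at 0.227 ± 0.0993 CPM (SD, n = 5) against 0.650 ± 0.271 CPM in controls (SD, n = 7). It had a log2 fold change of -1.50 (SE 0.35, adjusted p = 0.00531, edgeR), on 4 to 12 counts in each ethanol-administered mouse. Without the 3 mice of raised choroid plexus markers it was not called, with a log2 fold change of similar size and a wider error (-1.39, SE 0.54, adjusted p = 0.138, edgeR).

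**Figure D5:**
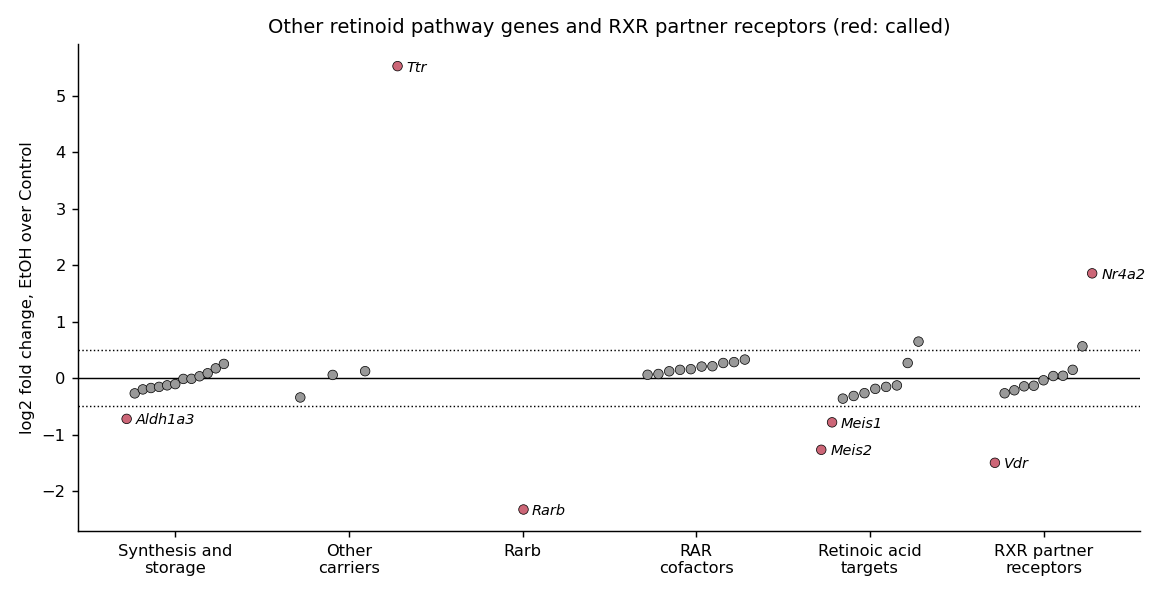
log2 fold change (y axis, ethanol-administered over control mice) of every tested gene of the other retinoid lists and of the RXR partner receptors, 1 point a gene, red and named where called. Ttr (5.52) and Nr4a2 (1.86) lie highest and Rarb (-2.32) lowest, while no RAR cofactor passes 0.5.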

How the data were processed

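RNA of mouse cortex was sequenced by BGI. The authors checked reads with FastQC 0.11.9, aligned them with STAR to GRCm39 (Gencode Release 28) and counted them per gene with featureCounts, whose strand and multi-mapping settings are not given in the sources used here. The deposited expected counts per gene symbol are not normalized, and 61 of 33024 symbols hold values that are not whole; counts were rounded. All columns matched a mouse by name.

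Genes passing filterByExpr (16059) were tested with edgeR 4.0.16 (R 4.3.3), with TMM factors, the quasi-likelihood test of 5 against 7 mice and Benjamini-Hochberg adjustment over all of them. Thresholds were those of the study (adjusted p under 0.05, log2 fold change above 0.5). Standard errors are the log2 fold change over the root of F. The log2 CPM values use a prior count of 2. The labels give each mouse's group, treatment, strain and number (with a suffix M that they do not explain), but not cage or litter, and p-values measure the spread between these samples. All library pairs differed by more than counting noise (chi-square over degrees of freedom of at least 7.79). The fits were tested on simulated data.

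Positions, merged exon lengths and promoters came from Gencode mouse release 39 on GRCm39, newer than that of the authors; where the counting ignored strand, overlapping genes are uncertain. Alternatives were DESeq2 1.42.0, limma 3.58.1 (voom), other factors, filters and fold minimums, a replicate block and each mouse left out. Members and lists were chosen with earlier results of these data known. All members were described, with list genes that were called and fixed pathway genes, of which a withheld item is not reported here; Ncoa1 was named after its values were seen. For each called member the 3 genes of highest within-group correlation are named.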

Additional observations from a re-analysis of the deposited data

Results flagged for a closer look

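In 4 of 26 group-wise checks 1 mouse lay far from its group, and about 1.3 such cases come by chance. Ethanol-administered mouse 2 had the lowest Rxra level of its group (5.09 log2 CPM, next 5.41). Control mouse 7 had the lowest Stra6 level of its group (2.60 log2 CPM, next 2.97), and it was also the control with the lowest striatal marker sum. Library totals were highest by far in control mouse 5 (40690223 counts, then 32356913) and, among EtOH libraries, in mouse 1 (42183029 counts, then 33313165). Leaving out both of these deeper libraries left 2 members called lower.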

How the results depend on the processing

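Rxrg and Crabp1 were the members called under DESeq2, limma voom, both other normalization factors, the replicate block and each of the 12 fits without 1 mouse (2 members called throughout). Asking for at least 10 counts in every mouse left 1 member called, because Crabp1 was not tested, and 1 RXR partner receptor, because Vdr was not tested. With no minimum fold change, 4 members, 13 other retinoid genes (7 higher and 6 lower) and 65 of 114 marker genes were called, where 23.7% of all genes were, and with a minimum of 1, 3 other retinoid genes were. Without the 3 ethanol-administered mice of raised choroid plexus markers, an alternative chosen after seeing the data that leaves 2 such mice, 2 members, 3 other retinoid genes and 1 RXR partner receptor were called. Ttr is among the markers that chose those mice, and the mice left were the lowest in Rxrg and Crabp1. Ttr was not called by limma voom (adjusted p = 0.114). The log2 fold change of Rara, -0.07, became 0.00998 with the replicate block, and that of Rarg, -0.05, ranged from -0.12 to 0.00229 without 1 mouse, the latter without ethanol-administered mouse 1; the cause was not tested. Without 1 mouse, the difference in the Rxrg share of RXR, -17.7 percentage points, lay between -18.9 and -16.9. The replicate numbers pair no mice: deviations of same-numbered mice had correlations of -0.11 to 0.02. The block left 2 members called. For Crabp1 and Vdr, few counts limit the precision.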
